A study of Mus musculus with 9 samples.

Results

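The autophagy machinery genes described here are 41 genes whose products build, load and close the autophagosome, and they were chosen by gene name from a list of known components. All 41 were found among the 55401 genes of the deposited count table, and all 41 were among the 16762 genes with enough counts to be tested. The counts came from poly(A)-enriched RNA of 9 cultures of primary neonatal mouse ventricular myocytes (NMVMs), heart muscle cells from wild-type (WT) C57BL/6J mice at 1 day of age, grown in DMEM with 10% FBS. The control group (n = 3) stayed in normal oxygen and complete medium. The hypoxia group (n = 3) was moved to DMEM lacking glucose and serum and kept for 6 h in a closed, oxygen-absorbing chamber. The hypoxia + rSRGN group (n = 3) was treated in the same way, with recombinant serglycin (rSRGN), the core protein of a proteoglycan stored in secretory granules, present during the same 6 h. Lack of oxygen, of glucose and of serum came together and cannot be told apart in any comparison with control. The dose of rSRGN is not given in the sources used here, and no label says that the 3 replicates of a group came from separate litters or isolations. The p-values therefore measure the spread between these cultures, which may be technical.

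Autophagy is the route by which a cell encloses parts of its cytoplasm in a double membrane and delivers them to the lysosome for breakdown. A kinase complex around ULK1 starts the process, a lipid kinase complex around PIK3C3 marks the membrane with phosphatidylinositol 3-phosphate (PI3P), and vesicles with ATG9A and the lipid transfer proteins ATG2A and ATG2B supply the membrane. Small ubiquitin-like proteins of the ATG8 family, which comprise LC3 and GABARAP, are then coupled to the membrane lipid by a chain of conjugating enzymes and hold cargo receptors in place, and the closed autophagosome fuses with the lysosome. In heart muscle, autophagy is known to rise in fasting and in ischaemia and to take part in the turnover of mitochondria and protein aggregates. RNA levels measure the supply of transcripts for these parts and not the activity of the process.

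Total counts ranged from 21669017 to 22781557 in control, from 16583985 to 18148474 in hypoxia and from 16640239 to 20826701 in hypoxia + rSRGN. The 13 cardiomyocyte markers were detected in every group, with a summed level of 51578 to 62882 CPM (counts scaled by TMM to a common library size) in control, 4503 to 7018 in hypoxia and 9117 to 9687 in hypoxia + rSRGN. A gene was called at a Benjamini-Hochberg adjusted p below 0.05 in edgeR's quasi-likelihood test together with a change of 1.5-fold or more, and all 13 markers were called lower in hypoxia than in control. The summed level of the 9 fibroblast markers was 8818 to 10398 CPM in control, 17328 to 20121 in hypoxia and 19220 to 19789 in hypoxia + rSRGN, and 6 of the 9 were called higher in hypoxia. The 8 macrophage markers summed to 229.6 to 246 CPM in control and 24.3 to 27.0 in hypoxia and were all called lower, and 6 of the 8 endothelial markers were called lower (medians of their summed level of 93.4 CPM in control and 53.1 in hypoxia). Of the 4 smooth muscle markers, 1 was called higher and 1 lower. No marker stood at 0 in all libraries of a group, but 2 macrophage markers (Adgre1 and C1qa) were each at 0 in 2 hypoxia libraries and 1 (Ptprc) in 1 hypoxia + rSRGN library. In bulk RNA, fewer cells of a type and less RNA per cell cannot be told apart. These marker levels moved with every difference from control given below, and their part in those differences was not tested.

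In the hypoxia group the machinery genes moved in both directions, with more falls than rises. Of the 41 genes, 3 rose (Atg3, Gabarap and Gabarapl1), 14 fell and 24 were not called. The called shares were 7.32% higher and 34.1% lower, beside 26.4% higher and 25.1% lower of all genes tested. The median log2 fold change of the 41 genes was -0.23, against 0.05 for all genes tested, and the values ran from -1.23 to 0.98. With library size alone as scaling 6 genes were called higher and 14 lower, beside 28.8% and 23.3% of all genes. By the adjusted p alone, without the fold change limit, 8 genes were higher and 21 lower, beside 36.8% and 34.1% of all genes. The hypoxia and control libraries did not overlap in 32 of the 41 genes and in 73% of all genes tested. The median length of the gene models was 2013 bases for the 3 genes that rose, 5956 bases for the 14 that fell and 6594 bases for the others.

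**Figure D1:**
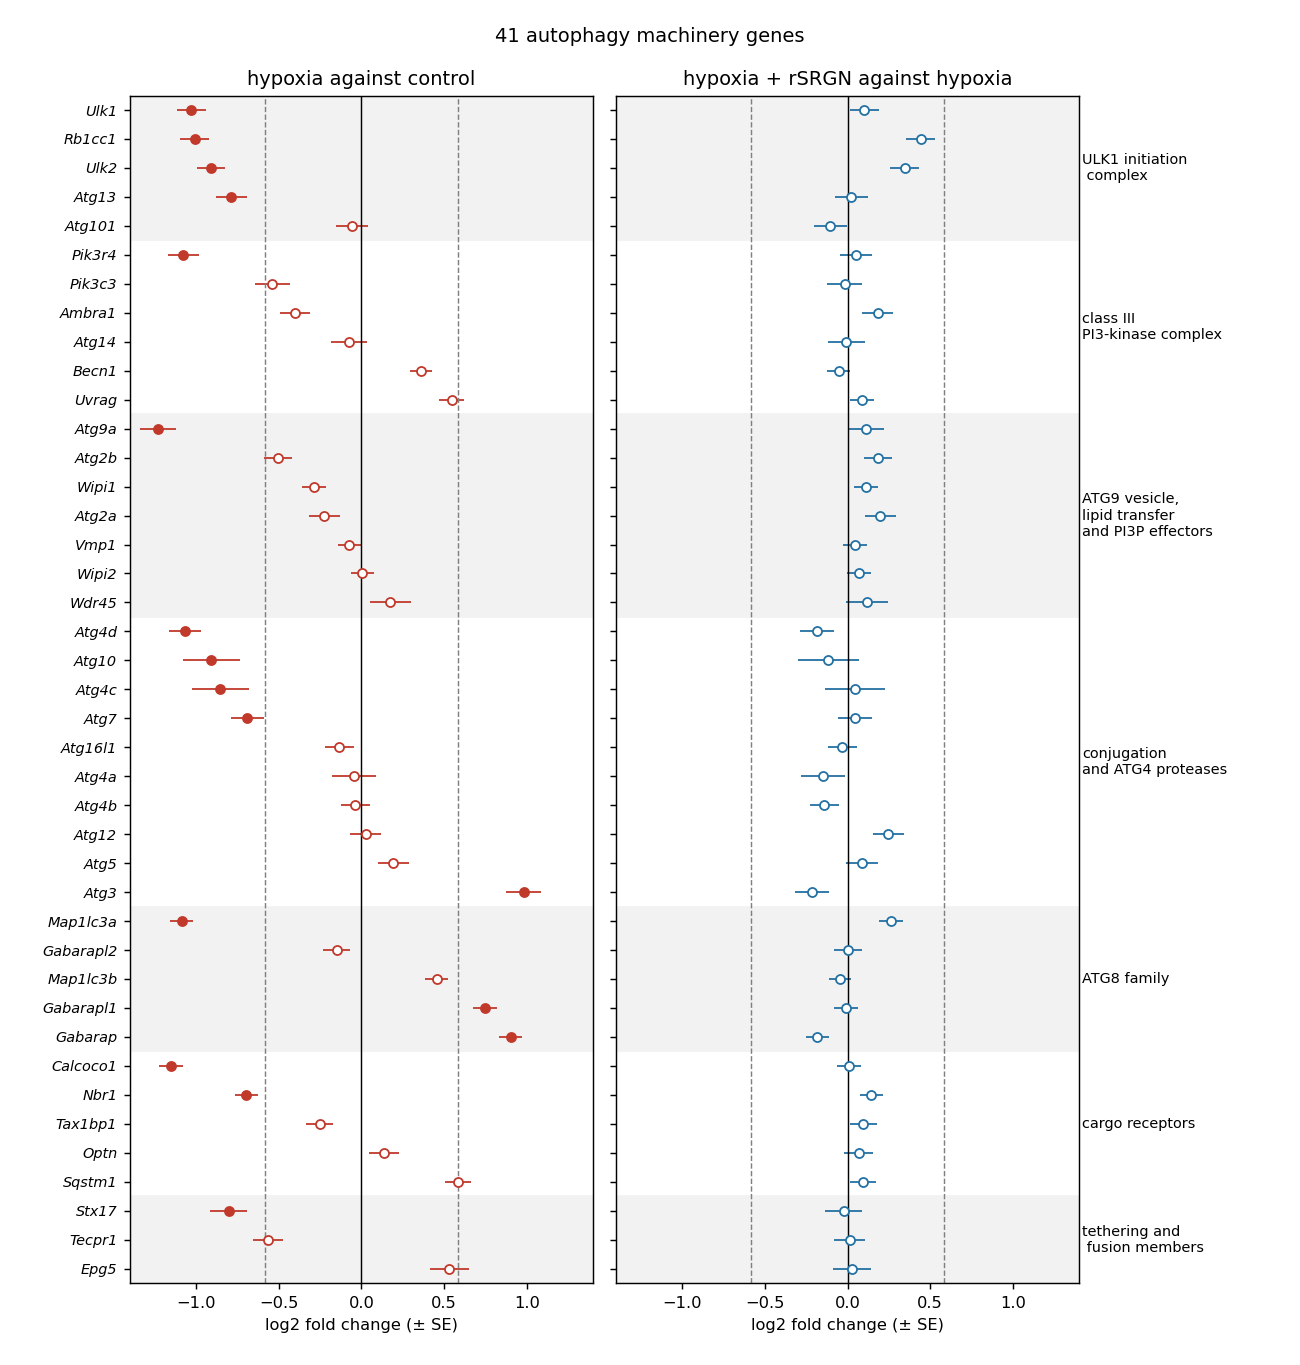
Log2 fold change (horizontal axis, points with the standard error as bars) of each of the 41 autophagy machinery genes, grouped by role, in hypoxia against control (left) and hypoxia + rSRGN against hypoxia (right). Filled points were called at an adjusted p below 0.05 and beyond the dashed lines of 1.5-fold change. On the left 14 genes are filled below 0 and 3 above, and on the right none is filled.

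The ULK1 initiation complex had the lowest median of the 7 role groups, with the median member at -0.91 on the log2 scale (0.05 for all genes tested) and 4 of its 5 genes fallen. The counts of this and the next role groups stand beside the 26.4% of all genes tested that were called higher and the 25.1% called lower. Its summed level was 305 to 315 CPM in control, 168 to 175 in hypoxia and 192 to 202 in hypoxia + rSRGN. Ulk1 (ENSMUSG00000029512.11, chr5:110784488-110810097, minus strand, mm10), the kinase that receives signals from mTORC1 and AMPK, had 67.9, 81.0 and 70.6 CPM in the 3 control libraries, 35.3, 38.0 and 34.2 in hypoxia and 38.1, 37.2 and 39.9 in hypoxia + rSRGN. Every control library lay above every library of both hypoxic groups. The log2 fold change in hypoxia was -1.03 ± 0.09 (SE, adjusted p = 4.69e-10 in edgeR's quasi-likelihood test), a level 2.04-fold lower. Rb1cc1, the large scaffold also called FIP200, fell by 1.01 on the log2 scale, the related kinase Ulk2 by 0.91 and the adaptor Atg13 by 0.79. Atg101, the small partner that stabilises ATG13, was not called (-0.06, adjusted p = 0.612).

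In the class III PI3-kinase complex, 1 of 6 genes fell and none rose by the same rule. Pik3r4 (ENSMUSG00000032571.14, chr9:105642978-105687657, plus strand), which encodes the regulatory subunit VPS15, had 39.1, 40.1 and 40.0 CPM in control, 17.5, 19.8 and 19.2 in hypoxia and 19.5, 19.4 and 19.6 in hypoxia + rSRGN. The hypoxic libraries lay close together and well under control. The change in hypoxia was -1.08 ± 0.09 (adjusted p = 7.63e-10), or 2.11-fold lower. The catalytic subunit gene Pik3c3 had a log2 fold change of -0.54 and the Beclin partner gene Ambra1 one of -0.40, with adjusted p-values of 9.05e-05 and 5.19e-04 but under the fold change limit. Pik3c3 was called lower with genes of at least 1 count kept (-0.59) and without hypoxia replicate 2 (-0.63). Atg14, whose product directs the complex to the forming autophagosome, was at -0.08. Becn1, which encodes the core subunit Beclin, was at 0.36 and Uvrag, whose product takes the place of ATG14 in the endosomal form of the complex, at 0.55. The members of this complex thus ran from -1.08 to 0.55, and their summed level was 264 to 269 CPM in control and 269 to 273 in hypoxia.

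Among the 7 genes of the ATG9 vesicle, of lipid transfer and of PI3P binding, Atg9a alone was called. Atg9a (ENSMUSG00000033124.16, chr1:75180860-75192196, minus strand) encodes the lipid scramblase carried by the vesicles that seed the autophagosome, and it had 58.2, 74.8 and 69.2 CPM in control, 33.3, 26.7 and 26.0 in hypoxia and 28.5, 32.0 and 32.4 in hypoxia + rSRGN. Its fall in hypoxia was the largest of the 41 genes (-1.23 ± 0.11, adjusted p = 9.56e-10, 2.35-fold lower). Control and hypoxic libraries did not overlap. The lipid transfer genes Atg2b and Atg2a were at -0.50 and -0.23. The PI3P-binding members were at -0.29 for Wipi1, 0.01 for Wipi2 and 0.18 for Wdr45, and Vmp1, which encodes a scramblase of the endoplasmic reticulum, was at -0.07. Among these 3 PI3P-binding members of the WIPI family, levels per kilobase of gene model put Wipi1 at 72.3% of their sum in control, 67.2% in hypoxia and 67.6% in hypoxia + rSRGN. The sum leaves out Wdr45b, a WIPI gene that is not among the 41 genes. Its level was 12.9, 12.7 and 12.8 CPM per kilobase in the same order, beside 25.9, 21.2 and 22.9 for Wipi1.

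The conjugation enzymes and ATG4 proteases held both the largest rise and 4 falls. Atg3 (ENSMUSG00000022663.3, chr16:45158785-45188538, plus strand), the conjugating enzyme that passes ATG8 proteins on to the membrane lipid, had 37.6, 35.0 and 32.8 CPM in control, 59.0, 82.4 and 66.8 in hypoxia and 64.9, 55.0 and 59.8 in hypoxia + rSRGN. All 6 hypoxic libraries were above all controls, and the hypoxia libraries spread more widely than those of the other groups. The rise in hypoxia was 0.98 ± 0.10 (adjusted p = 2.21e-08), or 1.97-fold. The activating enzyme gene Atg7, which acts just before ATG3, fell by 0.69 and Atg10, the conjugating enzyme gene of the ATG12 branch, by 0.91. Atg12 (0.03), Atg5 (0.19) and Atg16l1 (-0.13), whose products form the complex that completes the coupling, were not called.

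Of the proteases that trim ATG8 proteins and release them from lipid, Atg4d fell most. Atg4d (ENSMUSG00000002820.6, chr9:21265293-21277772, plus strand) had 39.5, 43.1 and 42.7 CPM in control, 19.2, 20.6 and 19.9 in hypoxia and 15.9, 19.0 and 17.5 in hypoxia + rSRGN, with no overlap between control and either hypoxic group. Its change in hypoxia was -1.07 ± 0.10 (adjusted p = 1.76e-09), or 2.10-fold lower. Atg4c fell by 0.85, whereas Atg4a and Atg4b were at -0.05 and -0.04. Per kilobase of gene model, the share of Atg4d in the 4 ATG4 genes was 26.7% ± 1.54 (SD, n = 3) in control, 16.3% ± 0.18 in hypoxia and 15.7% ± 1.63 in hypoxia + rSRGN. Atg4a and Atg4b, at 29.6% and 29.4% in control, reached 36.8% and 36.7% in hypoxia. Without division by length the changes in hypoxia were 3.70 points instead of 7.19 for Atg4a, 11.7 instead of 7.38 for Atg4b and -13.0 instead of -10.4 for Atg4d.

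Promoter sequences of 34 of the 41 genes were matched by symbol in RefSeq (GRCm38.p6, 250 bases before to 50 bases after the transcription start, 40 promoters), and 4 motifs known from factors that act on autophagy or stress genes were searched on both strands. The palindrome TCACGTGA, the core of the element bound by TFEB and TFE3, stood in the promoter of 1 member, Atg3, that is in 1 of the 40 promoters, and in 0.974% of the 32851 promoters of this length. TGACNNNGC, the antioxidant response element of NRF2, stood in 7 of the 40 promoters (17.5%), those of 5 members (Atg13, Map1lc3b, Tax1bp1, Ulk2 and Vmp1), and in 12.4% of all promoters. TGATGNAA, bound by ATF4 with its partners, and TGTTTAC, bound by FOXO factors, were in none of the member promoters and in 3.97% and 3.65% of all. None of the 4 motifs shares its full letters with another, and a match describes the letters alone. The promoter of Atg3, the gene with the largest rise, is shown because it holds the TFEB motif, which begins 72 bases before the start, and that of Map1lc3b because it is an ATG8 gene with a motif, which begins 4 bases after the start. Both are given 5′ to 3′ on the plus strand up to 30 bases after the start, with the motif in capitals, for chr16:45158579-45158858 and chr8:121590188-121590467.
Atg3: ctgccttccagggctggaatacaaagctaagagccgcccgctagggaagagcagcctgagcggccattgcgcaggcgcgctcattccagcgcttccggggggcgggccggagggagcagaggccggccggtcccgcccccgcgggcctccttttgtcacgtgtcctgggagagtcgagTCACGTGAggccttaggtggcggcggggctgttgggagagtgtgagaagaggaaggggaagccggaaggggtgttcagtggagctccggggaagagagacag
Map1lc3b: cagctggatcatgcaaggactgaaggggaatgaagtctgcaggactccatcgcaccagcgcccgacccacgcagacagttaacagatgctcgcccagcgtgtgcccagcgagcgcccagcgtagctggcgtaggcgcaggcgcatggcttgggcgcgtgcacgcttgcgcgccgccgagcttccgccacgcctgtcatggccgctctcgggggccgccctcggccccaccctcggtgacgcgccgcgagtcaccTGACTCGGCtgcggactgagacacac

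The ATG8 family split by member. Map1lc3a (ENSMUSG00000027602.9, chr2:155276297-155278073, plus strand), which encodes LC3A, had 126, 134 and 131 CPM in control, 62.7, 61.1 and 60.6 in hypoxia and 74.3, 75.2 and 71.8 in hypoxia + rSRGN. The groups were fully separated, control highest and hypoxia lowest. The fall in hypoxia was -1.09 ± 0.07 (adjusted p = 4.19e-12), or 2.12-fold. Gabarap (ENSMUSG00000018567.14, chr11:69991143-69994951, plus strand) had 231, 215 and 223 CPM in control, 391, 444 and 415 in hypoxia and 366, 363 and 372 in hypoxia + rSRGN. Hypoxia was the highest group here, again without overlap. Its rise was 0.90 ± 0.07 (adjusted p = 1.19e-10), or 1.87-fold.

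Gabarapl1 (ENSMUSG00000030161.8, chr6:129533160-129542346, plus strand), a close relative of GABARAP, had 66.5, 61.4 and 68.7 CPM in control, 108, 118 and 104 in hypoxia and 111, 108 and 109 in hypoxia + rSRGN. It rose by 0.75 ± 0.07 in hypoxia (adjusted p = 7.06e-09), and the 2 hypoxic groups overlapped. Map1lc3b (ENSMUSG00000031812.16, chr8:121590361-121598760, plus strand) encodes LC3B, the form most used as a marker of autophagosomes. It had 161, 158 and 154 CPM in control, 204, 218 and 227 in hypoxia and 217, 206 and 206 in hypoxia + rSRGN. All hypoxic libraries were above control (0.45 ± 0.07, adjusted p = 3.98e-06), but the change was under the 1.5-fold limit. Gabarapl2 (ENSMUSG00000031950.7, chr8:111940703-111953612, plus strand) had 64.2, 65.2 and 71.9 CPM in control, 59.9, 55.4 and 66.2 in hypoxia and 60.3, 63.3 and 58.3 in hypoxia + rSRGN. The hypoxia libraries overlapped with both other groups, whereas those of hypoxia + rSRGN lay below control. It was not called in either comparison with control (-0.15 ± 0.08, adjusted p = 0.107 in hypoxia, and adjusted p = 0.116 with rSRGN).

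**Figure D2:**
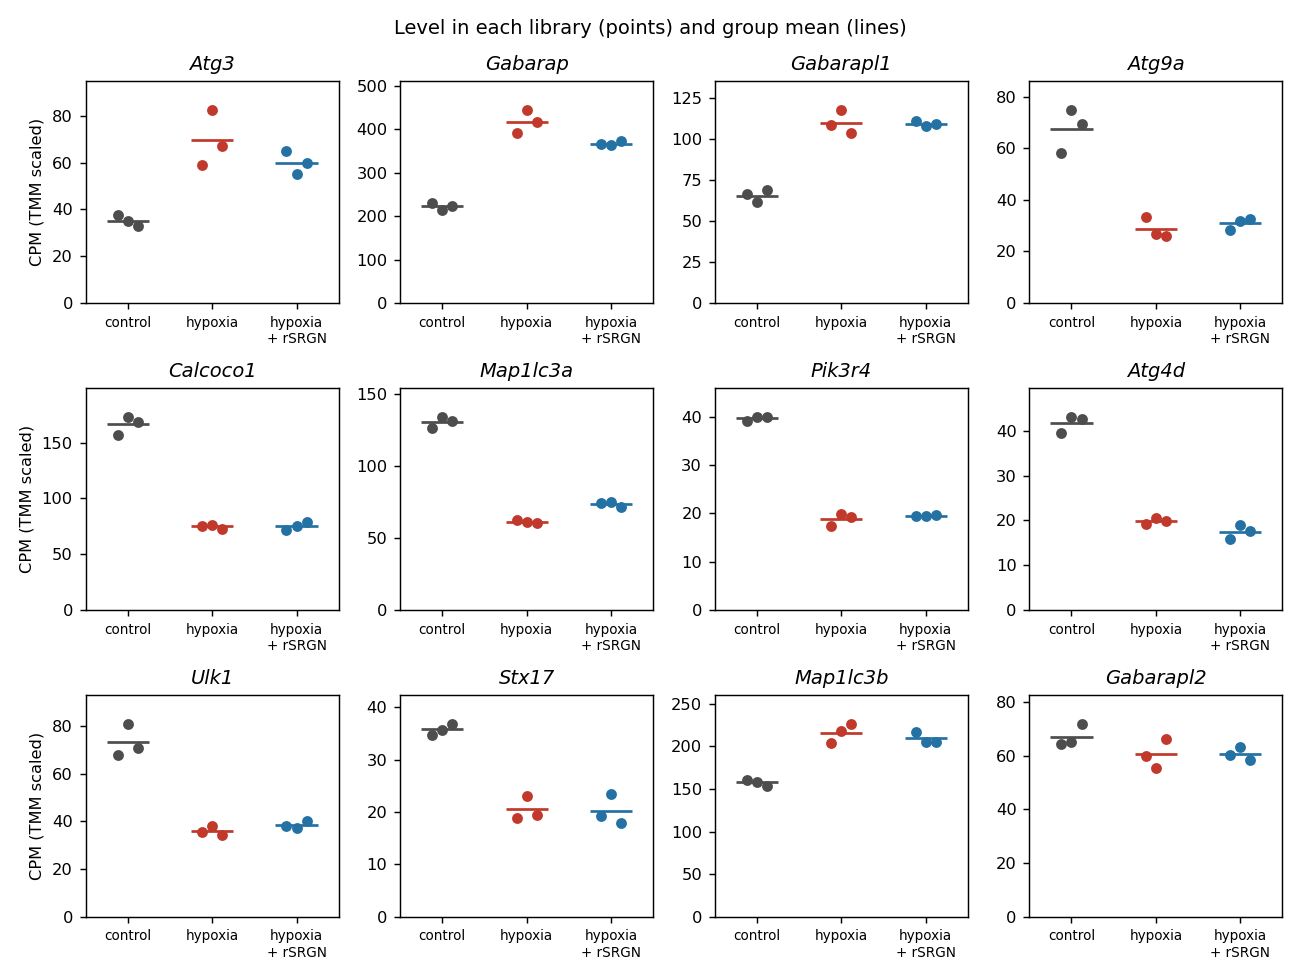
Level of 12 of the genes given by library, in CPM scaled by TMM (vertical axis from 0, each panel with its own scale), with a point for each culture and a line at the group mean, in control, hypoxia and hypoxia + rSRGN. The upper panels hold the 3 genes that rose, from Atg3 at 32.8 to 37.6 CPM in control against 59.0 to 82.4 in hypoxia, beside genes that fell such as Atg9a.

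As a share of the summed level per kilobase of the 5 ATG8 genes, Map1lc3a was 35.3% ± 1.36 (SD, n = 3) in control, 13.5% ± 0.75 in hypoxia and 16.9% ± 0.40 in hypoxia + rSRGN. Gabarap was 38.5% ± 1.21 in control, 58.3% ± 1.31 in hypoxia and 53.8% ± 0.71 in hypoxia + rSRGN. The share of Gabarapl1 was 10.4%, 14.1% and 14.7% in the same order, that of Map1lc3b 6.69%, 7.42% and 7.54%, and that of Gabarapl2 9.19%, 6.73% and 7.05%. Control and hypoxia libraries were apart in each of these 5 shares and in 14 of the 16 shares computed over 5 families, and 73% of all genes tested were likewise apart in their levels. The shares of each family sum to 100%, so the 16 are not separate results, and a share is another measure than a level. A two-sided exact permutation test over 3 libraries against 3 cannot go below p = 0.1, which was reached for each of the 5 shares between hypoxia and control (0.137 after Benjamini-Hochberg adjustment over the 48 share tests made). Between hypoxia + rSRGN and hypoxia, 5 of the 16 shares did not overlap, with the same smallest p of 0.1 (0.137 adjusted), and neither did the levels of 32% of all genes. The 5 shares were those of Map1lc3a (3.44 points higher), Gabarap (-4.48 points) and Gabarapl1 (0.60 points higher), and those of Ulk1 (-4.26 points) and Ulk2 (4.26 points higher), which sum to 100%. The level of Gabarapl1 itself overlapped between these groups, with a log2 fold change of -0.01, beside one of -0.18 for Gabarap, the largest part of the sum. Without division by length the change of Map1lc3a in hypoxia was -13.2 points instead of -21.8, and that of Gabarap 13.5 instead of 19.8 points. The small share of Map1lc3b rests on its gene model of 7517 bases, beside 1181 to 2325 bases for the other ATG8 genes. In CPM without this division Map1lc3b was above Map1lc3a, with means of 158 against 131 in control and 216 against 61.5 in hypoxia.

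**Figure D3:**
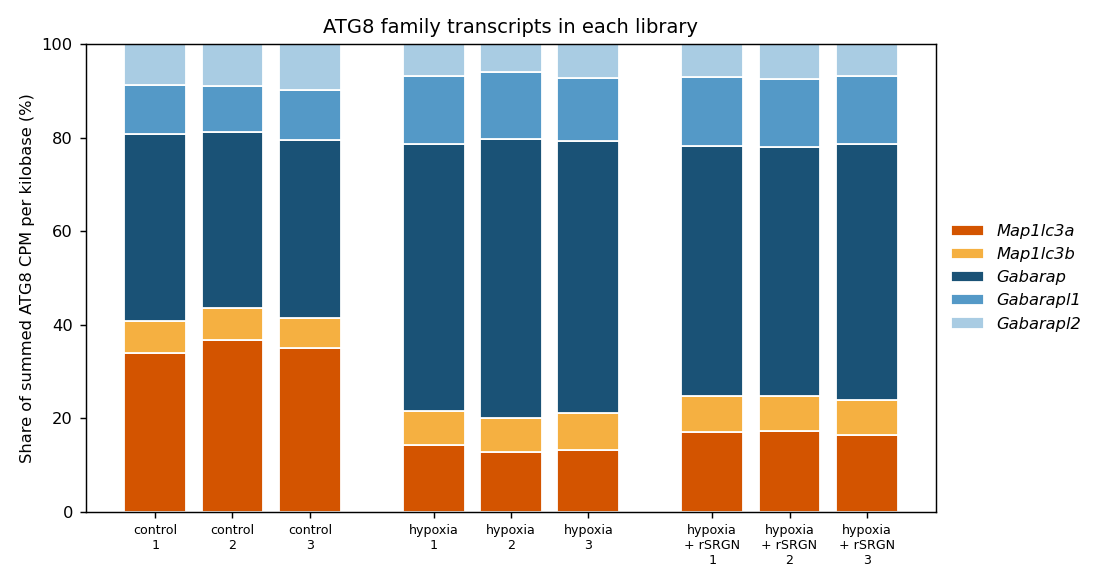
Share of each of the 5 ATG8 genes in their summed CPM per kilobase of gene model (vertical axis, percent), with a bar for each of the 9 cultures. Map1lc3a takes 34.0% to 36.7% of the bar in control, 12.8% to 14.3% in hypoxia and 16.5% to 17.3% in hypoxia + rSRGN, and Gabarap 37.6% to 39.9%, 57.0% to 59.6% and 53.4% to 54.6%.

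Of the 5 cargo receptors, which bind ubiquitin or organelles on one side and ATG8 proteins on the other, 2 fell and none was called higher. Calcoco1 (ENSMUSG00000023055.10, chr15:102706777-102722178, minus strand), a receptor for the endoplasmic reticulum, had 157, 173 and 169 CPM in control, 75.2, 76.4 and 73.0 in hypoxia and 71.2, 75.5 and 79.2 in hypoxia + rSRGN. Its level was lower in all 6 hypoxic libraries, with a change in hypoxia of -1.15 ± 0.07 (adjusted p = 3.13e-12), or 2.22-fold. Nbr1 fell by 0.70, and Tax1bp1 (-0.25) and Optn (0.14) were not called. Sqstm1 encodes the receptor p62 and is given by library because its value was seen to lie just under the limit. It had 598, 612 and 538 CPM in control, 816, 960.4 and 843 in hypoxia and 891, 911 and 994 in hypoxia + rSRGN. All hypoxic libraries were above control, and the log2 fold change of 0.584 ± 0.080 in hypoxia (adjusted p = 1.01e-06) missed the limit of 0.585. It was called with library size alone as scaling (0.65) and without control replicate 2 (0.60), hypoxia replicate 1 (0.63) or hypoxia replicate 3 (0.61).

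Of the 3 tethering and fusion genes, Stx17 fell. Stx17 (ENSMUSG00000061455.13, chr4:48124915-48186507, plus strand) encodes the SNARE that the closed autophagosome carries for fusion with the lysosome. It had 34.8, 35.7 and 36.9 CPM in control, 19.0, 23.2 and 19.5 in hypoxia and 19.2, 23.4 and 17.9 in hypoxia + rSRGN. The control libraries lay apart from the hypoxic ones, which overlapped with each other. The change in hypoxia was -0.80 ± 0.11 (adjusted p = 1.09e-06). Tecpr1 (-0.57) and the tether gene Epg5 (0.53) had adjusted p-values of 1.28e-05 and 3.36e-04, with opposite signs and both under the fold change limit. Tecpr1 was called lower with DESeq2 (-0.60), RLE scaling (-0.59), genes of at least 1 count kept (-0.62), and without control replicate 1 (-0.66) or hypoxia replicate 1 (-0.60). Epg5 was called higher with library size alone as scaling (0.61) and without hypoxia replicate 2 (0.66).

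Ordered by level per kilobase of gene model, Sqstm1 was highest in each group, with 174 ± 11.7 CPM per kilobase (SD, n = 3) in control, 260.2 ± 22.9 in hypoxia and 278 ± 16.3 in hypoxia + rSRGN. In control it was followed by Gabarap (121 ± 4.38) and Map1lc3a (111 ± 3.48), and then at a distance by Gabarapl1 (32.6 ± 1.86), Calcoco1 (29.0 ± 1.44) and Gabarapl2 (28.9 ± 1.82), of which the last 2 lay within each other's spread. In hypoxia Gabarap stood at 226 ± 14.3, and Map1lc3a at 52.1 ± 0.94 no longer differed from Gabarapl1 at 54.7 ± 3.48 beyond their spread. Atg3 moved from place 16 in control (11.1 CPM per kilobase) to place 7 in hypoxia (22.0). Calcoco1 moved from place 5 to place 14 (13.1) and Atg9a from place 14 (11.7) to place 26 (4.98). The lowest of the 41 genes was Epg5 in control (2.52) and Atg4c in hypoxia (1.71).

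When rSRGN was present during hypoxia, none of the 41 genes was called against hypoxia, where 2.27% of all genes tested were called higher and 0.859% lower (381 and 144 genes). Over all genes these counts were 201 and 120 without hypoxia replicate 3, and 284 and 70 without replicate 2 of hypoxia + rSRGN. The log2 fold changes ran from -0.21 to 0.44 with a median of 0.04 (-0.03 for all genes tested). In edgeR's quasi-likelihood test 8 genes had an unadjusted p under 0.05, 6 higher and 2 lower, beside 15.9% and 13.5% of all genes. An adjusted p under 0.05 at any fold was reached by 3 genes, all higher, beside 10.5% higher and 6.11% lower of all genes. DESeq2 also called none of the 41 genes, beside 3.17% higher and 0.588% lower of all genes it gave an adjusted p. The libraries of the 2 groups did not overlap in 13 of the 41 genes and in 32% of all genes. These comparisons share the hypoxia libraries with those against control.

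The 3 genes with an adjusted p under 0.05 all had higher values with rSRGN and lower values in hypoxia than in control. Rb1cc1 and Ulk2 are given by library because this p was seen. Rb1cc1 had 94.8, 84.5 and 85.0 CPM in control, 47.2, 42.6 and 41.5 in hypoxia and 62.0, 64.4 and 52.2 in hypoxia + rSRGN. Its 3 rSRGN libraries lay between the other groups, with a log2 fold change against hypoxia of 0.44 ± 0.09 (adjusted p = 0.00185, 1.36-fold). Ulk2 had 59.7, 64.3 and 67.3 CPM in control, 35.7, 30.8 and 35.2 in hypoxia and 42.5, 43.8 and 42.9 in hypoxia + rSRGN, and again lay between (0.35 ± 0.09, adjusted p = 0.00874). Map1lc3a was 0.26 ± 0.07 higher than in hypoxia (adjusted p = 0.0131), a level of 1.20-fold. Across the same libraries 11 of the 13 cardiomyocyte markers were called higher with rSRGN, and their part in these values was not tested.

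The genes that rose in hypoxia had log2 fold changes with rSRGN against hypoxia of -0.21 ± 0.10 for Atg3 (adjusted p = 0.167), -0.18 ± 0.07 for Gabarap (adjusted p = 0.0741) and -0.01 ± 0.07 for Gabarapl1 (adjusted p = 0.963). Beside Map1lc3a, those of the 4 largest falls were 0.11 ± 0.11 for Atg9a, 0.01 ± 0.07 for Calcoco1 and 0.05 ± 0.10 for Pik3r4. Among the others Atg12 was highest with 0.25 (adjusted p = 0.0787), and the remaining genes lay between -0.19 for Atg4d and 0.20 for Atg2a.

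Against control, hypoxia + rSRGN gave 5 genes called higher (12.2%) and 11 called lower (26.8%), beside 24.1% and 24.7% of all genes tested. The median of the 41 log2 fold changes was -0.17 (0.01 for all genes). By the adjusted p at any fold 11 were higher and 19 lower, beside 34.4% and 34.3% of all genes. This comparison shares its control libraries with that of hypoxia against control. The genes called higher were Atg3 (0.77), Gabarapl1 (0.74), Gabarap (0.72), Sqstm1 (0.68, adjusted p = 1.23e-07) and Uvrag (0.63, adjusted p = 1.55e-07). Those called lower were Atg4d (-1.25), Calcoco1 (-1.14), Atg9a (-1.12), Pik3r4 (-1.03), Atg10 (-1.02), Ulk1 (-0.93), Stx17 (-0.83), Map1lc3a (-0.82), Atg4c (-0.81), Atg13 (-0.76) and Atg7 (-0.65). Ulk2 and Rb1cc1, at -0.57 each, and Nbr1 at -0.55 were not called here. Rb1cc1 was called lower in 5 of 13 alternatives, namely with genes of at least 1 count kept (-0.61) and without control replicate 2 (-0.61), control replicate 3 (-0.60), or replicate 1 (-0.59) or 2 (-0.63) of hypoxia + rSRGN. Ulk2 was called with genes of at least 1 count kept (-0.61) and without control replicate 1 (-0.62), and Nbr1 with that filter (-0.60) and without control replicate 2 (-0.59). The values of Sqstm1 against control without and with rSRGN were 0.58 and 0.68 and those of Uvrag 0.55 and 0.63, on either side of the limit. For both genes the difference between the hypoxic groups was small (0.09 ± 0.08 each, adjusted p = 0.467 and 0.478).

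Some of these counts could be shared with other genes, since fragments were counted without strand and near-identical copies cannot be told apart. The transcripts searched for this were those of an earlier GENCODE release than the one used for counting. Of windows of 50 bases from them, 51.2% of those of Atg4a also occurred in another gene on either strand. The share was 36.8% for Becn1, 30.5% for Atg9a, 23.1% for Gabarapl1, 17.4% for Uvrag, 16.9% for Wdr45, 15.5% for Sqstm1, 14.6% for Atg4d and 12.2% for Gabarapl2. For 13 members no window was shared, among them Map1lc3a, Gabarap, Atg3, Pik3r4 and Stx17. The partner gene of Gabarapl1 (1700101I11Rik) held 6 to 18 counts per library, that of Atg4a (Atg4a-ps) 0 to 13 and that of Atg9a (Gm29253) 0. Mrps17, which shares windows with Becn1, held 664 to 1102 counts per library beside 1617 to 2002 for Becn1, with a log2 fold change in hypoxia of -0.04. Kri1, which shares windows with Atg4d, held 240 to 399 counts per library beside 267 to 955 for Atg4d, with a log2 fold change in hypoxia of -0.23. Gm10687, which shares windows with Uvrag, held 28 to 94 counts and Mrnip, which shares them with Sqstm1, 26 to 56. The values of these genes are uncertain, and the partner counts do not give the size of this uncertainty. A fragment in a shared stretch may be lost from both genes, so a low partner count can arise whatever is transcribed there.

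The pathway around the machinery was described with 59 other genes in 4 lists, of which 58 were tested. In hypoxia against control 4 of them rose (6.9%) and 19 fell (32.8%), beside 26.4% and 25.1% of all genes tested. The list of 26 upstream regulators held 13 of the falls (50% of the list) and no rise, and its median was -0.60 on the log2 scale. The largest were those of Depp1 (-4.66 ± 0.31), a FOXO target, Prkaa2 (-3.72 ± 0.11), the catalytic subunit of AMPK that prevails in muscle, and Mitf (-2.85 ± 0.11), which encodes a relative of TFEB. Depp1 was near the floor in hypoxia, with a mean of 0.41 CPM beside 10.6 in control and 5 counts in its lowest library. Of the 12 HOPS, SNARE and tethering partners, which bring autophagosome and lysosome together, 3 fell (25%, the share of all genes being 25.1%), namely Fyco1 (-3.10), which links autophagosomes to microtubule motors, Plekhm1 (-1.18), an adaptor of late endosomes, and the HOPS subunit gene Vps33a (-0.97). The adjusted p was at most 3.62e-09 for these 6 genes.

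Of the 9 tested receptors for selective autophagy, 2 rose and 2 fell (22.2% each, beside 26.4% and 25.1% of all genes tested). Retreg1, the receptor for the endoplasmic reticulum also called FAM134B, was at -2.95 ± 0.14 (adjusted p = 3.58e-14), while Tex264, another receptor for this organelle, rose by 0.92 and Nufip1, a receptor for ribosomes, by 0.86. Among the 11 other core genes, Atg9b (1.47 ± 0.37, adjusted p = 0.00116) and Atg16l2 (0.62) rose and Rubcn, an inhibitor of the lipid kinase complex, fell by 0.88. Atg9b was at a low level, with 10 to 50 counts per library and a mean of 0.76 CPM in control and 2.13 in hypoxia. With rSRGN against hypoxia 4 of the 58 genes were called, all higher (6.9%, beside 2.27% of all genes). They were Retreg1 (1.14, adjusted p = 4.75e-05), Deptor (0.78, adjusted p = 0.0240), Prkaa2 (0.70, adjusted p = 3.88e-04) and Fyco1 (0.61, adjusted p = 0.00164). Of these, Deptor alone overlapped between the hypoxic groups, and it was at a low level, with 39 to 226 counts per library. The cardiomyocyte markers were higher in the same libraries, and their part in these values was not tested.

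**Figure D4:**
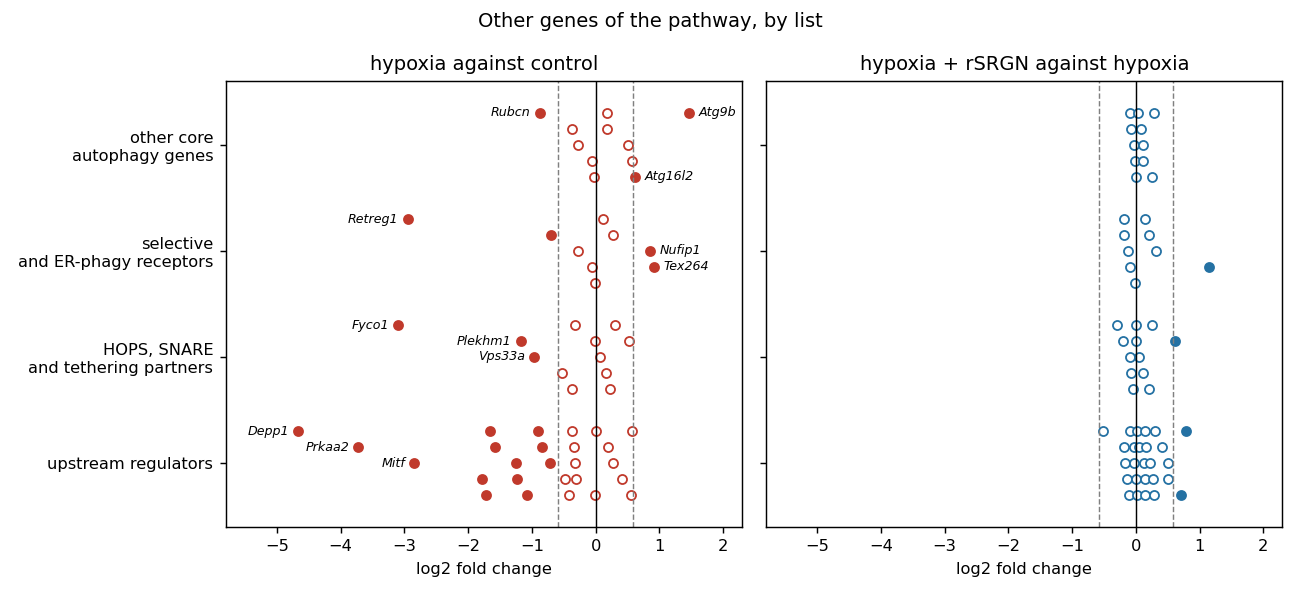
Log2 fold change (horizontal axis) of the 58 tested genes of 4 lists around the autophagy machinery, in hypoxia against control (left) and hypoxia + rSRGN against hypoxia (right). Each point is a gene, filled where it was called, and the dashed lines mark a 1.5-fold change. Of the 26 upstream regulators 13 are filled on the left, all below 0, and on the right 4 genes of the 58 are filled, all above 0.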

How the data were processed

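RNA-seq was available from 9 cultures of NMVMs, 3 per group, and each library was put in its group by the title and treatment in the labels. The deposited values are raw counts, whole numbers of fragments for each gene that the authors did not normalize. Per the file headers, paired-end fragments were counted on exons with featureCounts (version 2.0.1) and GENCODE release 25, without a strand option, and the submitters' processing notes name HISAT2 and mm10. A fragment shared by overlapping genes or copies may therefore be lost or misplaced. All 9 columns of counts were used and 0 were left unused.

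From these counts, low genes were removed by filterByExpr, library sizes were scaled by TMM, and the groups were compared in a joint fit of the 9 libraries with edgeR (version 4.0.16, R 4.3.3, quasi-likelihood test, Benjamini-Hochberg adjustment over all 16762 genes). The fold change limit of 1.5 is that of the paper's mouse heart RNA-seq, since its text does not describe these cultures. The standard error (SE) is the log2 fold change divided by the root of the F statistic. Levels are CPM, divided by the length of the gene model in kilobases where genes are compared. The test was checked on simulated data. Total counts of 16583985 to 22781557 set the precision. Libraries of one group differed by more than sampling noise (chi-square per degree of freedom of 3.63 to 13.1), so none was merged. Replicate numbers did not pair the libraries (correlation of deviations from group means of -0.037 to 0.021).

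The 41 genes, the gene lists and the motifs were chosen with earlier results of these data known. All 41 genes are named. Values by library are given for the 4 called genes with the largest rise (3 were called) and fall, the largest change of each of the 7 role groups, the ATG8 family, and any gene called with rSRGN (none). Up to 3 called genes of each pathway list are named by their change in hypoxia, and at most 3 promoters with a motif are shown. Alternatives were DESeq2 (version 1.42.0), RLE scaling, library size alone, other filters (at least 1 count in all, or 10 in every library), calls by the unadjusted P or by the adjusted p at any fold, separate fits per comparison, a block for the replicate number, each library left out, and family shares without division by length. Plots were drawn with matplotlib (version 3.10.9).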

Additional observations from a re-analysis of the deposited data

How the results depend on the processing

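The numbers of called autophagy genes in the comparisons with control were recomputed 60 times in all, and 56 of these values lay within a factor of 1.5 of the reported number. With rSRGN against hypoxia 29 of 30 values were 0, like the reported ones. With library size alone as scaling, 6 genes instead of 3 were higher in hypoxia than in control, the additional ones being Sqstm1 (0.65), Uvrag (0.62) and Epg5 (0.61). Without a fold change limit, which widens the threshold by construction, 8 genes were higher in hypoxia than in control, 3 were higher with rSRGN than in hypoxia, and 11 were higher and 19 lower with rSRGN than in control. Among the 13 alternatives that keep the threshold, the 17 genes called in hypoxia and the 16 called with rSRGN against control were called under each, and 19 of 24 and 19 of 25 of the others stayed uncalled, while with rSRGN against hypoxia all 41 stayed uncalled. No gene changed sign in these where it was called. Leaving out a library brought Tecpr1 (control 1 or hypoxia 1), Pik3c3 (hypoxia 2), Epg5 (hypoxia 2) and Uvrag (control 3) past the limit in hypoxia against control, in addition to Sqstm1. With rSRGN against control it did so for Epg5 (control 2 or 3, or hypoxia + rSRGN 1 or 2), Pik3c3 (control 3 or hypoxia + rSRGN 1) and Tecpr1 (control 1 or hypoxia + rSRGN 1), besides Rb1cc1, Ulk2 and Nbr1. Over all genes tested, 381 were higher and 144 lower with rSRGN than in hypoxia, beside 436 and 81 with DESeq2 and 442 and 106 with RLE scaling.

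The median log2 fold change in hypoxia against control was -0.26 with DESeq2, -0.25 with RLE scaling, -0.16 with library size alone, -0.28 with genes of at least 1 count kept, and -0.26 to -0.19 with each library left out. With rSRGN against hypoxia it was 0.0763 with DESeq2, 0.0726 with RLE scaling, 0.0227 with library size alone and 0.0472 to 0.0638 with each library left out. With rSRGN against control it was -0.13 with library size alone, -0.22 with genes of at least 1 count kept, -0.16 with only the groups compared and -0.21 to -0.17 with each library left out. The median of all genes moved as well. In hypoxia against control it was 0.05 and became 0.14 with DESeq2, 0.03 with RLE scaling, 0.12 with library size alone and 0.12 with genes of at least 1 count kept. With rSRGN against hypoxia it was -0.0289 and became 0 with DESeq2, -0.00025 with RLE scaling and -0.0510 with library size alone. With rSRGN against control it was 0.0076 and became 0.0547 with library size alone, 0.0231 with genes of at least 1 count kept and -0.00086 with only the groups compared. The 288 differences in family shares with a library left out each moved by less than the spread between replicates. Leaving out 1 of 3 libraries cannot move a group mean by more than the spread used here, so this outcome was fixed in advance. Of the 48 differences without division by length, 19 moved by more than this spread, with the same sign. With the replicate number as a block, which does not mark a pairing here, 3 genes were higher and 14 lower in hypoxia, 0 were called with rSRGN against hypoxia, and 5 were higher and 11 lower with rSRGN against control.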
